A study of Mus musculus with 4 samples.

Results

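The genes described here are the glucocorticoid receptor gene Nr3c1 and its widely used response genes Fkbp5 and Sgk1, followed as log ratios on 4 two-colour microarrays of mouse dentate gyrus RNA. The members are the 4 features of the value table whose platform annotation names 1 of these 3 genes, out of 16281 features in all: feature 3737 for Nr3c1 (Entrez 14815), feature 3675 for Fkbp5 (Entrez 14229), and features 2843 and 11337 for Sgk1 (Entrez 20393). All 4 had a value on every array, as had 8777 features of the table. A value is the log ratio of the 2 channels of an array, read as log2 and centred on the median of its array, and an exact 0 in the table is taken as no value.

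Each array set RNA of MK-801-injected young male C57BL/6J mice (dose labelled as 300 µg per g, Cy5 channel) against RNA of mice of the same strain, sex and age class injected with saline (5 µL per g, Cy3 channel). MK-801 is a blocker of the NMDA receptor channel. There was 1 array at each of 1, 2, 4 and 6 h, with no repeat and no dye swap, so a value at a single time has no replicate error. The labels count the hours from a shock given to the MK-801 animals and call both RNAs those of control mice, so whether these mice were shocked is not settled, and they do not say how many mice were pooled. The dose is as labelled and may carry a wrong unit.

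The table does not say which channel is on top of the ratio. A positive value may mean more RNA with MK-801 or more with saline, and signs below are those of the table, taken to run the same way on all 4 arrays. The base of the logarithm is not stated either. The largest ratio of a member, -0.80 for Nr3c1, is a 1.74-fold difference in base 2 and would be 2.22-fold if the values were natural logarithms. Ratios carry no level of expression, so the tissue could not be checked by the amount of its marker RNAs, and fewer cells of a type cannot be told apart from less RNA per cell. The 1 h array ran apart from the others over all features (Pearson r of -0.09, -0.08 and -0.10 with 2, 4 and 6 h, against 0.68 to 0.85 among these), a description across features that share arrays.

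Corticosterone, the main glucocorticoid of mice, enters cells and binds the receptor encoded by Nr3c1, which is held ready in the cytoplasm by HSP90 and its co-chaperones. The loaded receptor moves to the nucleus, binds DNA at paired hexamers called glucocorticoid response elements, and switches genes on or off. Fkbp5 encodes FKBP51, a co-chaperone that lowers the receptor's affinity for hormone and so closes a negative feedback loop. Sgk1 encodes a serine/threonine kinase that acts on ion channels and transporters, and neuronal activity and osmotic stress induce it as well as hormone. The hippocampus, the dentate gyrus included, is rich in this receptor and is a classical site of feedback on the stress axis.

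Promoter windows of RefSeq (build GRCm38.p6, 250 bases before to 50 after an annotated start) show where the receptor's consensus lies near the start sites of its response genes. The table held 6 windows for Sgk1 and 1 for Fkbp5. The window of Sgk1 with the full palindrome and the Fkbp5 window are shown for contrast, both 5′ to 3′ on the gene's strand, with capitals marking the hexamers AGAACA and TGTTCT and the palindrome they form.
Sgk1, chr10:21993640-21993939, plus strand: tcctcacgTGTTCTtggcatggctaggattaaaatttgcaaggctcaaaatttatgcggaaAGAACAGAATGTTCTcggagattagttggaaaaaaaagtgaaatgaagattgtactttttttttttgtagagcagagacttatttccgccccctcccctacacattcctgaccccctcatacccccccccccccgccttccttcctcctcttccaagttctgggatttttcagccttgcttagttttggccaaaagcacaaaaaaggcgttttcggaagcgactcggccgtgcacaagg
Fkbp5, chr17:28486100-28486399, minus strand: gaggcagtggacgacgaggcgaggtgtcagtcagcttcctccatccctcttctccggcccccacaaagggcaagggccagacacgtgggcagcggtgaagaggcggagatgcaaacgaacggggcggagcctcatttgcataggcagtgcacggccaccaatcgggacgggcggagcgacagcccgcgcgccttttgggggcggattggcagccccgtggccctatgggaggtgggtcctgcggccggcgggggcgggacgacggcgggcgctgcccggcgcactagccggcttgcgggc
The palindrome searched was AGAACA, any 3 bases, then TGTTCT. It stood in the Sgk1 window shown as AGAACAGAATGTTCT at chr10:21993701-21993715. Its first base was at -189 from the start site of that window, which is 1 of the 6 for Sgk1. Of 32851 windows in the whole table, 3 (0.009%) held this palindrome, which reads the same on both strands. The single hexamer, AGAACA or TGTTCT, is part of the palindrome and was in 19.0% of all windows. It occurred 3 times in this Sgk1 window, 1 time in each of 2 other Sgk1 windows and 0 times in the Fkbp5 window. Known receptor sites of Fkbp5 lie in its introns, outside such a window. Among the 33 listed glucocorticoid-induced genes with a window, 0 held the palindrome. A match of letters is a description and not a site of binding, and these arrays measured no binding.

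Nr3c1, the receptor gene itself, had negative ratios on all 4 arrays. Its feature read -0.80, -0.15, -0.28 and -0.22 at 1, 2, 4 and 6 h. The 1 h value is set well below the other 3, which lie close together. A lowest value at 1 h was found for 42.4% of the features with all 4 values. The 1 h array also had the largest median absolute deviation (0.32, against 0.21 to 0.23). Its standard deviation (0.37) was not the largest, with 0.44 at 4 h and 0.38 at 6 h. With arrays of equal spread, set by the median absolute deviation, Nr3c1 read -0.61 at 1 h. On the 1 h array 1.4% of 12131 features had a lower value than Nr3c1, and 4.6% lay at least as far from 0. At 2, 4 and 6 h 25.3%, 12.8% and 16.1% of features were lower, so at those times the receptor gene was within the bulk of the array. A negative ratio on all 4 arrays was found for 14.2% of the 8777 features.

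The mean was tested against 0, its error being taken from how far the times differed. That of Nr3c1 was -0.36 ± 0.12 (SE, n = 4 arrays). It did not pass in limma with Benjamini-Hochberg adjustment (adjusted p = 0.286, unadjusted p = 0.0223). No member passed, and 0% of the 8777 features did (0 at an adjusted p of 0.05, lowest adjusted p = 0.206). At an unadjusted p under 0.05 there were 1295 features (14.8%), among them Nr3c1 and none of the other 3 member features. Array weights, which gave the 1 h array a weight of 0.20 and the 6 h array 3.38, turned this into a call (mean -0.24, limma adjusted p = 0.0267), beside 27.4% of all features. Without the 1 h array the mean of Nr3c1 was -0.21 and was not called (limma adjusted p = 0.0698), beside 10.9% of features called.

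Fkbp5, the feedback co-chaperone, had a positive ratio at 1 h, negative ones at 2 and 4 h and one near 0 at 6 h. Its feature read 0.37, -0.23, -0.30 and -0.01 at 1, 2, 4 and 6 h. The 1 h value was above that of 84.8% of features, those at 2 and 4 h were above 15.9% and 11.3%, and the 6 h value stood near the middle of its array. The same succession of signs, positive at 1 h and below 0 at the 3 later times (barely so for Fkbp5 at 6 h), was found for 15.0% of the 8777 features. The mean of Fkbp5 was -0.04 ± 0.12 (SE), with a limma adjusted p of 0.892.

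Sgk1, the kinase, was read by 2 features that the platform annotation ties to the same gene, and they differed. Feature 2843 read -0.29, 0.12, 0.13 and 0.18 at 1, 2, 4 and 6 h. Feature 11337 read -0.04, -0.25, -0.01 and 0.19 at the same times. Both were negative at 1 h and positive at 6 h, and at 2 h they stood on opposite sides of 0. With the arrays left uncentred feature 11337 was positive at 4 h (0.01), so its sign there has no weight.

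Genes with 2 features give a scale for that difference. The Sgk1 features were apart by 0.25, 0.37, 0.14 and 0.01 in order of time. The median absolute difference over the genes with 2 valued features (1538, 1394, 1144 and 1177 genes) was 0.31, 0.20, 0.20 and 0.17 at these times. Only at 2 h was the Sgk1 difference clearly above that median, and 26.5% of such genes differed by at least as much there. The ninetieth percentile of this difference was 0.90, 0.62, 0.94 and 0.70. Every ratio of the 4 member features, also Nr3c1 at 1 h (-0.80), was smaller in absolute size than this percentile on its array. These are unlike measures, since a difference carries the error of 2 features and a ratio that of 1. Among single ratios at 1 h, 4.6% of features lay at least as far from 0 as Nr3c1. The spread between features of a gene leaves out the spread between mice.

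Neither Sgk1 feature passed in the mean over times (0.03 ± 0.10 for feature 2843 and -0.03 ± 0.09 for feature 11337, SE, limma adjusted p 0.893 and 0.902). The order negative at 1 h, then positive at all later times, as in feature 2843, was found for 16.9% of features. Fkbp5 and Sgk1 feature 2843 had opposite signs at 1, 2 and 4 h, and at 6 h Fkbp5 was too near 0 for its sign to count. Fkbp5 and Sgk1 feature 11337 were both negative at 2 h (-0.23 and -0.25). The difference between Fkbp5 and Sgk1 was not tested.

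**Figure D1:**
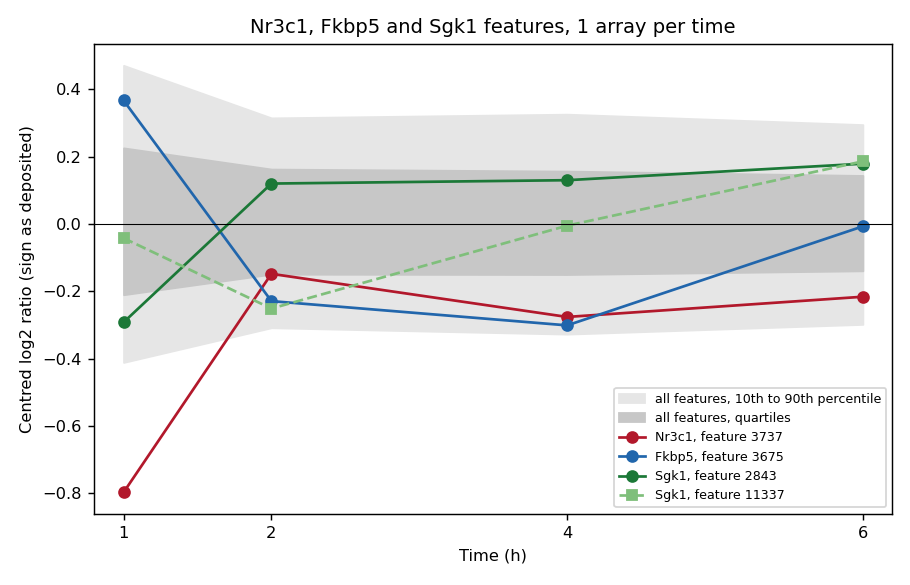
Centred log2 ratio (vertical axis, sign as in the deposited table) against time in hours (horizontal axis) for the features of Nr3c1, Fkbp5 and Sgk1, 1 array per time, with no error bars since no time was repeated. Grey bands hold the middle 50% and 80% of all features with a value; Nr3c1 at 1 h (-0.80) lies outside the wide band, and every other point lies within it.

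Trends with time were tested as the slope on log2 hours, that is, the change for each doubling of time. Nr3c1 had a slope of 0.19 ± 0.09 and Sgk1 slopes of 0.17 ± 0.07 (feature 2843) and 0.10 ± 0.08 (feature 11337), while Fkbp5 had a slope of -0.16 ± 0.11 (all SE). None passed in limma (adjusted p = 0.379, 0.332, 0.542 and 0.475 in that order), and 0% of all 8777 features passed, with 15.5% at an unadjusted p under 0.05 and 0 of the 4 member features among them. Without the 1 h array the slope of Nr3c1 became -0.05 and that of Fkbp5 0.12, so the sign of both rested on the 1 h value. The slopes of both Sgk1 features stayed positive without any 1 array (0.03 to 0.21 for feature 2843 and 0.02 to 0.27 for feature 11337). The lowest of each was near 0. It came without the 1 h array for feature 2843 (0.03) and without the 6 h array for feature 11337 (0.02).

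At single times a ratio of at least 0.5 in absolute size was counted, for which there is no test. At 1 h 1 of the 4 member features, that of Nr3c1, was past it, against 15.4% of all features. At 2, 4 and 6 h 0 of 4 were, against 6.36%, 9.06% and 6.77%. The range over the 4 times was 0.65 for Nr3c1, 0.67 for Fkbp5, 0.47 for Sgk1 feature 2843 and 0.44 for feature 11337, and the median range of all features was 0.38. A range at least as wide as that of Fkbp5 was found for 18.8% of features.

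Other genes known to be induced by glucocorticoids gave no common direction. Of 39 listed genes 32 had a value on some array, and 34 features of 26 genes had all 4 values. Their medians were -0.16, 0.02, -0.07 and 0.00 at 1, 2, 4 and 6 h, beside -0.03, -0.01, 0.00 and 0.00 for all features. At these times 14, 20, 14 and 17 of the 34 were positive. The sign of the 6 h median turned with quantile normalisation. In the mean over times 0 of 34 passed, with 1 positive and 5 negative at an unadjusted p under 0.05 (17.6% of the list, near the 14.8% of all features). Without the 1 h array 0 positive and 3 negative features of 35 were called, beside 10.9% of all features, and with array weights 3 positive and 5 negative of 34, beside 27.4%.

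The members of that list with a mean farthest from 0 were the features of Per1, a clock gene with a receptor site in its promoter. Feature 9654 read -0.36, -0.63, -0.55 and -0.44 at 1, 2, 4 and 6 h, and feature 17780 read -0.53, -0.32, -0.36 and -0.40. Both were negative throughout, as Nr3c1 was, and both were called without the 1 h array (limma adjusted p = 0.0167 and 0.0278) but not with all 4 (0.206 and 0.218). Gadd45g, a stress-response gene, was the other gene of the list called without 1 h, through feature 9034 (0.08, -0.31, -0.42 and -0.40, limma adjusted p = 0.0278). Its feature 18424 read -0.18, -0.11, -0.08 and -0.05 and was not called (0.344).

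Dusp1, a phosphatase of MAP kinases that glucocorticoids induce, had both features near 0.4 at 1 h (0.46 and 0.36) and near -0.35 at 6 h (-0.35 and -0.34). Like Fkbp5 it was positive at 1 h, and its slopes were -0.31 ± 0.07 and -0.27 ± 0.06 (SE, limma adjusted p = 0.271 for each). Pdk4, a kinase that restrains pyruvate use, ran from 0.57 at 1 h to 0.07 at 6 h. Sult1a1, a sulfotransferase, ran the other way (-0.42, -0.03, 0.43 and 0.32), and Zbtb16, a zinc finger repressor, read -0.49, -0.28, -0.08 and 0.01. None of these slopes passed, and 2 positive and 5 negative slopes of the 34 were at an unadjusted p under 0.05 (20.6%, against 15.5% of all features).

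Further markers of glucocorticoid action gave no call in the mean over all 4 arrays, while Mt2, Ddit4 and a feature of Txnip were called with array weights, beside 27.4% of all features. Tsc22d3, which encodes the leucine zipper protein GILZ, read 0.05, -0.06, 0.30 and -0.06 at 1, 2, 4 and 6 h. Mt2, a metallothionein, read 0.03, 0.19, 0.09 and 0.22. Nfkbia, the inhibitor of NF-kappa-B, read -0.37, 0.25, 0.01 and 0.04, and Klf9, a receptor target in neurons, read -0.18, 0.57, -0.09 and 0.03. Ddit4, an inhibitor of the mTOR kinase complex, was negative on all arrays (-0.02, -0.12, -0.33 and -0.41), with a mean of -0.22 ± 0.09 (SE, limma adjusted p = 0.329). Txnip, which binds thioredoxin, had a mean of 0.11 for 1 feature and 0.25 for another, neither called (0.502 and 0.285).

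**Figure D2:**
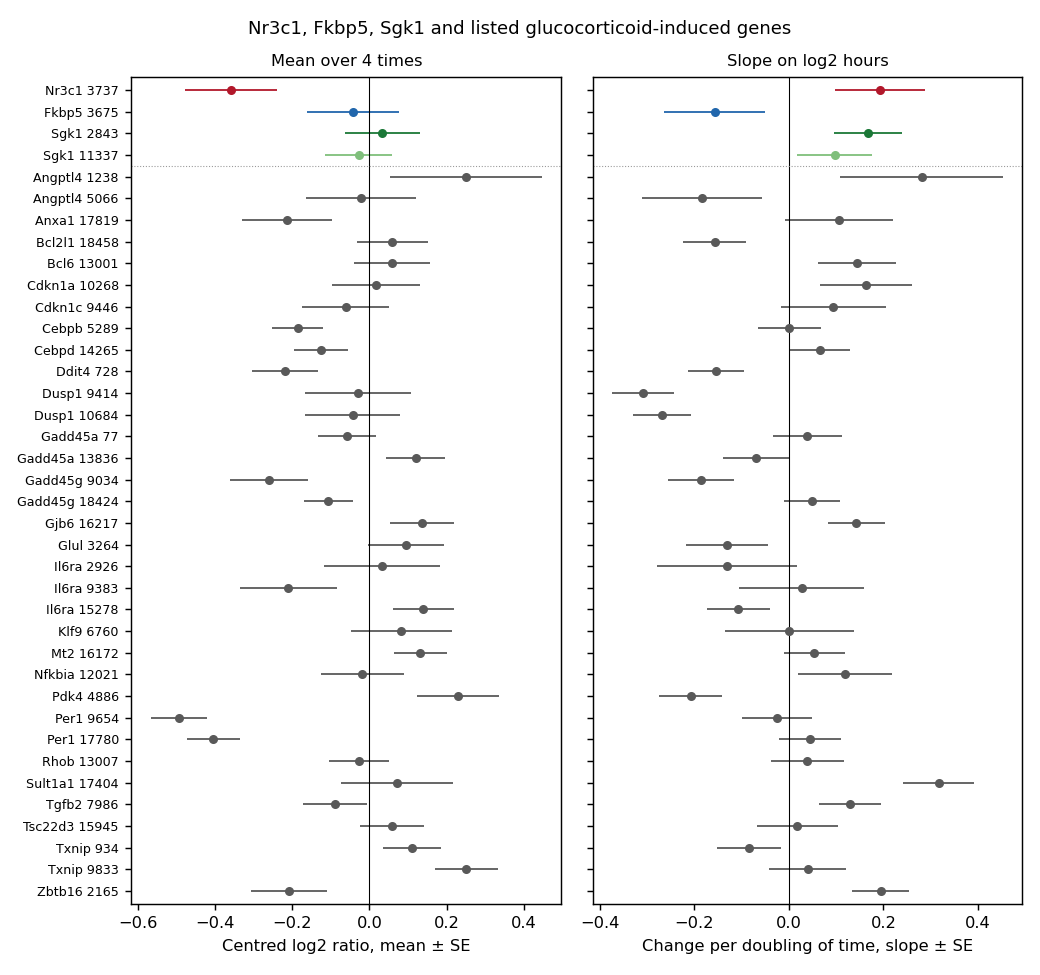
Mean over the 4 times (left, centred log2 ratio) and slope on log2 hours (right, change per doubling of time) with SE from limma for the features of Nr3c1, Fkbp5 and Sgk1 (coloured, above the dotted line) and the 34 features of listed glucocorticoid-induced genes (grey). Numbers beside symbols are feature numbers; the means of the Per1 features (-0.49 and -0.40) and of Nr3c1 (-0.36) are the lowest drawn, and none of the values passed after adjustment.

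Chaperones and co-chaperones that hold the receptor ready for hormone had 21 features of 16 genes with all 4 values. Their medians were 0.12, 0.04, 0.04 and -0.04 at 1, 2, 4 and 6 h, with 14, 12, 12 and 8 of 21 positive. None passed in the mean (0 of 21), and 2 were at an unadjusted p under 0.05, 9.5% of the list beside 14.8% of all features. Leaving out the 1 h array gave 1 call, Hspa1b feature 15862 (negative), beside 10.9% of all features, and with array weights 3 positive and 1 negative were, beside 27.4%. Bag1, a co-chaperone that binds the receptor, had features of opposite sign: 12280 read 0.58, 0.09, 0.16 and 0.26, and 3222 read -0.26, -0.05, -0.08 and -0.13. The inducible HSP70 gene Hspa1b also had features apart, with means of 0.19 (14566) and -1.29 (15862). Fkbp4, the co-chaperone that competes with FKBP51 for the receptor, was singled out for its role after its values were seen. It had 2 values, each on 1 array, -0.20 at 1 h and 0.59 at 2 h. Their signs were opposite to those of Fkbp5. The share of all features negative at 1 h and positive at 2 h was not counted, so these signs have no background to be read against.

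The other FK506-binding proteins had 8 features of 8 genes with all values, and their medians were -0.07, 0.08, 0.12 and 0.18 at 1, 2, 4 and 6 h, with 4, 6, 6 and 6 of 8 positive. In the mean 0 of 8 passed, and 0 were at an unadjusted p under 0.05, beside 14.8% of all features. Without the 1 h array 0 of 8 were called, beside 10.9% of all features. With array weights 0 of 8 were, beside 27.4%. Those farthest from 0 were Fkbp2, a protein of the endoplasmic reticulum (mean 0.17 ± 0.08, SE), Fkbp9 (0.12 ± 0.07) and Fkbp1a, the FKBP12 that binds the drug FK506 (0.11 ± 0.07). At 2 and 4 h the median of this family was positive and Fkbp5 was negative. In the slope 0 of 8 passed in limma. At an unadjusted p under 0.05 there were 2 of 8 slopes, both positive, beside 15.5% of all features.

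Nuclear receptor coregulators had 20 features of 17 genes with all values. Their medians were -0.11, -0.01, -0.05 and -0.08, and 6, 9, 9 and 8 of 20 were positive. The sign at 2 h turned when arrays were left uncentred. None passed in the mean, and 1 of 20 was at an unadjusted p under 0.05, 5.0% beside 14.8% of all features. Hdac1, a histone deacetylase, was the 1 call without the 1 h array (positive), and with array weights 2 positive and 4 negative were, beside 10.9% and 27.4% of all features. The feature under 0.05 was that of Ncoa6, a coactivator, at -0.15, -0.30, -0.19 and -0.23. Smarca2, an ATPase of chromatin remodelling, had a mean of -0.20 and Sin3a, a corepressor scaffold, of 0.19.

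Kinases near SGK1, their activators and SGK1's substrates had 19 features of 17 genes, with medians of -0.01, -0.01, 0.05 and 0.02, and the sign at 1 h turned when arrays were left uncentred or quantile-normalised. None passed in the mean, and 3 of 19 were at an unadjusted p under 0.05, 15.8% beside 14.8% of all features. The negative features of Akt2 and Kcna3 given next were called without the 1 h array (2 of 19), beside 10.9% of all features, and with array weights 3 positive and 2 negative were, beside 27.4%. The potassium channel gene Kcna3 read 0.26, -0.61, -0.39 and -0.96 in feature 13859, while another of its features had a value at 2 h alone (0.72), and Ywhaq, a 14-3-3 protein gene, had means of 0.27 and 0.15 for its features. Akt2, a related kinase, was at -0.86, -2.49, -3.40 and -2.58 in feature 15773, whereas its feature 15141 read -0.16, 0.22, 0.14 and 0.07. Nedd4l, the ubiquitin ligase that SGK1 phosphorylates, was also named for its role after its values were seen, and read -0.24, -0.08, 0.10 and -0.02.

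**Figure D3:**
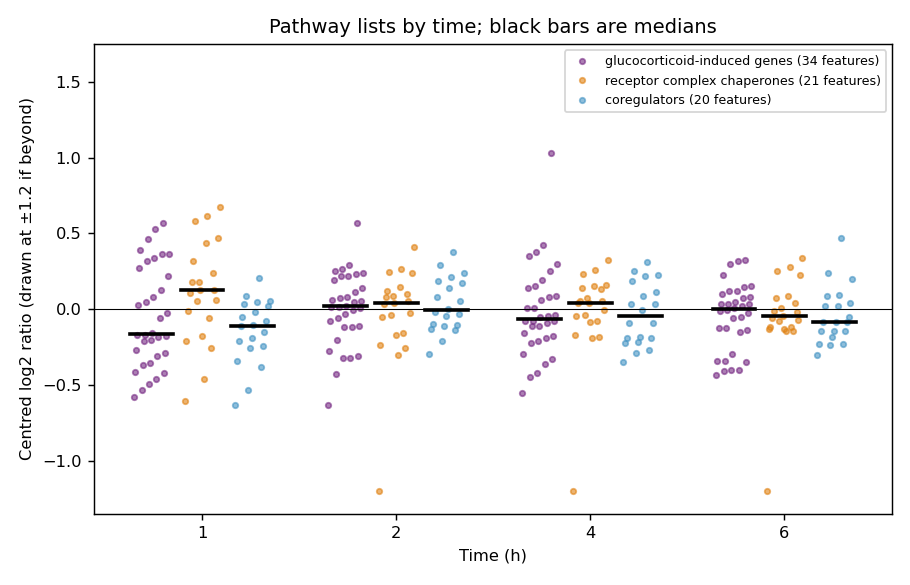
Centred log2 ratio (vertical axis) of single features at 1, 2, 4 and 6 h (horizontal axis) for the glucocorticoid-induced genes, the receptor complex chaperones and the coregulators with values on all arrays; black bars are medians, and values beyond 1.2 in size are drawn at 1.2. The medians at 1 h are -0.16, 0.12 and -0.11 in that order, and single features spread on both sides of 0 at every time.

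Few genes of steroid receptors and of steroid metabolism and transport were measured. Of 20 listed, 10 had some value and 3 had all 4. Hsd11b1, the enzyme that regenerates active corticosterone inside cells, read -0.03, 0.03, 0.09 and 0.28. Abcb1a, a drug efflux pump of the blood-brain barrier that also exports steroids, read -0.63, -0.12, 0.17 and 0.09, and Akr1c18, a hydroxysteroid dehydrogenase, read -0.50, -0.02, -0.08 and 0.24. None passed in the mean or the slope (lowest limma adjusted p 0.583 and 0.271). At an unadjusted p under 0.05 there were 0 of 3 means, beside 14.8% of all features. The slopes of Abcb1a and Akr1c18, 2 of 3 and both positive, were under it too, beside 15.5% of all features. Hsd11b2, which inactivates corticosterone, had 3 values, 0.04 at 2 h, -0.80 at 4 h and 0.05 at 6 h.

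Peptides and receptors of the stress axis had 7 features of 6 genes with all values, with medians of 0.18, -0.14, -0.17 and -0.30 at 1, 2, 4 and 6 h, and 5, 2, 0 and 1 of 7 positive. In the mean and in the slope 0 of 7 passed, with 14.3% and 42.9% at an unadjusted p under 0.05 (1 and 3 features), beside 14.8% and 15.5% of all features. Mc2r feature 5076 was called without the 1 h array (1 of 8, negative, limma adjusted p = 0.00904), beside 10.9% of all features, and with array weights 4 of 7 were, all negative, beside 27.4%. Mc2r, the receptor for the pituitary hormone ACTH, read 0.49, -0.55, -0.67 and -0.59 in feature 5076, with signs like those of Fkbp5 at 1, 2 and 4 h, but -0.28 at 1 h and -0.50 at 2 h in another feature. Oxt, the oxytocin gene, was negative on all arrays in feature 2190 (mean -0.31 ± 0.07, SE, limma adjusted p = 0.23), and another of its features read -0.19 at 1 h and 0.38 at 2 h. Adcyap1, the gene of the peptide PACAP, had means of -0.24 and -0.14 for its features.

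The features most like each member were sought by the root mean square difference of centred log2 ratios over the 4 arrays, among named features of other genes with all values. Nearest to Nr3c1 were Kcnd2 (difference 0.02), Robo1 (0.04) and Slc29a3 (0.06), and 12 of 7683 features lay within 0.1. Nearest to Fkbp5 were Cdca5, Arhgap42 and Esx1 (0.03 to 0.04), with 49 features within 0.1. Sgk1 feature 2843 was nearest to Vps53, Reln and Rab2a (0.02 to 0.03) with 349 of 7682 within 0.1, and feature 11337 to Ica1, Pigf and Eps8l2 (0.05 to 0.06) with 69. Of the 4 member features, Sgk1 feature 2843 had the most features this near and Nr3c1 the fewest.

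Markers of cell types that dentate tissue can hold were followed beside the members, since Sgk1 is also made by oligodendrocytes and vessels. Vessel markers (14 features of 13 genes) had medians of -0.20, -0.02, 0.08 and 0.12 at 1, 2, 4 and 6 h, with 5, 6, 9 and 11 positive. The vessel median at 2 h (-0.02) was too near 0 for its sign to count. At 1, 4 and 6 h Sgk1 feature 2843 had the same signs. Sgk1 feature 11337 was near 0 at 1 h (-0.04) and 4 h (-0.01) and positive at 6 h. Among all features with 4 values, 16.9% were negative at 1 h and positive at all later times, the order of feature 2843. The share of features with the signs of the vessel medians was not counted. Oligodendrocyte markers (16 features of 11 genes) had medians of 0.00, 0.06, 0.10 and 0.06, and granule cell markers (9 features of 7 genes) of 0.06, 0.00, 0.05 and 0.02. Astrocyte markers (18 features) had -0.10, 0.09, 0.00 and 0.11, microglial markers (16 features) -0.12, -0.03, -0.04 and 0.13, choroid plexus markers (8 features) -0.23, -0.20, -0.19 and -0.16, and blood markers (4 features) 0.33, 0.43, -0.09 and 0.23. Choroid plexus markers had 1, 2, 1 and 2 of 8 features positive and negative medians at each time. Nr3c1 was negative at each time too, as were 14.2% of the 8777 features with all 4 values. At 1 h Nr3c1 was at -0.80, where the choroid plexus median was -0.23. Without the 1 h array, where 10.9% of all features were called, the calls were 5 of 18 astrocyte features, 2 of 16 oligodendrocyte features and 1 of 18 microglial features (all positive), 2 of 17 vessel features (1 of each sign), 2 of 8 choroid plexus features, those of Ttr and Kl, and 1 of 4 blood features (all negative), and 0 of 9 granule cell features. With array weights, where 27.4% of all features were called, the calls were 5 positive and 1 negative of 18 astrocyte features, 4 positive of 16 oligodendrocyte features, 4 positive and 2 negative of 16 microglial features, 2 positive and 1 negative of 14 vessel features, 4 negative of 8 choroid plexus features, 1 of each sign of 4 blood features and 2 negative of 9 granule cell features. Without the 1 h array the Kl call came from feature 13730 (mean -2.95), while its feature 2148 was not called (-0.13, limma adjusted p = 0.171). The blood call there was Car1 feature 15631 (mean -3.215). The features of Hba-a1 and Hbb-b2 had positive means (0.17 to 0.27) and were not called. The part of these cell types in the ratios of the members was not tested.

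Features numbered near the members had medians near 0. For the features within 10 numbers of Nr3c1 the median at 1 h was 0.09 and the lowest value -0.44, above the -0.80 of Nr3c1. At 2, 4 and 6 h their lowest values (-0.42, -1.08 and -0.53) were below those of Nr3c1. For those near Fkbp5 the medians were 0.08, -0.01, -0.05 and -0.05 at 1, 2, 4 and 6 h. For those near Sgk1 features 2843 and 11337 the medians lay between -0.06 and 0.09 at every time. Single neighbours lay far from 0, down to -0.74 at 1 h near Fkbp5 and -2.82 at 6 h near Sgk1 feature 2843. Whether feature numbers follow the position on the array was not checked.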

How the data were processed

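RNA of mouse dentate gyrus was hybridised to 4 two-colour arrays, 1 per time, with MK-801 RNA in Cy5 and saline RNA in Cy3 per the labels. The deposited values are log ratios, read as log2; scanning, background correction, normalisation, log base and direction are, in the sources used here, not given. The deposited medians of non-zero values lay between 0.0052 and 0.017. An exact 0 (24.9% to 37.4% of 16281 features) was taken as no value, which left 10185 to 12227 features per array; the number of arrays limits the precision. Of the features 13738 had 1 gene symbol, 52 several and 2491 none in the platform annotation; 13694 matched the gene table of GRCm38.p6 by Entrez identifier and 0 symbols changed.

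Median centring was done per array, and features were kept apart. The 8777 features with values on all 4 arrays were fitted with limma 3.58.1 under R 4.3.3 (lmFit, eBayes), for the mean against 0 and for the slope on log2 hours, two-sided, with Benjamini-Hochberg adjustment over all features and a threshold of 0.05. The error behind each p-value is how far arrays of different times differ, technical and biological together. A constant dye bias cannot be told apart from treatment in the mean and cancels in the slope. The fits were tested on simulated data whose noise was independent and, within a feature, of equal size on all arrays. How they behave with arrays of unequal spread was not tested. Named were all features of the 3 genes, measured genes of the glucocorticoid-induced and steroid lists, the 3 features of each other pathway list with the largest absolute mean, called list members, and the 3 features nearest to each member. Members and lists were chosen with earlier results of these data known. Promoter windows came from RefSeq.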

Additional observations from a re-analysis of the deposited data

Results flagged for a closer look

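Some features of these genes had ratios of opposite sign at different times, each on 1 array, so the differences were not tested as such and no slope passed after adjustment in limma. For Fkbp5 the 1 h value exceeded the 4 h value by 0.67 on the log2 scale. For Sgk1 feature 2843 the 6 h value exceeded the 1 h value by 0.47, and for Sgk1 feature 11337 the 6 h value exceeded the 2 h value by 0.44. A range at least as wide was found for 18.8%, 37.5% and 41.9% of all features with values on all 4 arrays.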

How the results depend on the processing

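With 1 array per time no value at a time has a replicate, and log base and direction of the ratio are unknown. The count of 0 features called in the mean became 19 with values on at least 3 arrays, 9 with quantile normalisation and 2406 with array weights, and leaving out 1 array at a time gave 0 to 1023, the highest without 1 h. Exact 0 read as a value, no centring, equal spread and means per gene left it at 0. The slope count was 0 under every alternative run. Nr3c1 was called with array weights alone. The mean of Sgk1 feature 11337 turned to 0.063 with array weights and 0.003 as the mean of both Sgk1 features. Without 1 array at a time the mean ran from -0.18 to 0.044 for Fkbp5, -0.014 to 0.14 for Sgk1 feature 2843, -0.10 to 0.046 for Sgk1 feature 11337 and -0.43 to -0.21 for Nr3c1, and the slope from -0.33 to 0.12 for Fkbp5 and -0.052 to 0.26 for Nr3c1. The cause of these turns was not tested. Features past an absolute ratio of 1 numbered 258, 117, 215 and 163 at 1, 2, 4 and 6 h, against 1868, 778, 923 and 712 past 0.5, and with arrays of equal spread 998 were past 0.5 at 1 h. No paired analysis was possible because there is 1 array per time, so the times share no more than 1 replicate number, and that number is not in the labels.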
